A study of Homo sapiens with 3 samples.

Results

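Most human miRNAs are cut from long primary transcripts by the nuclear enzyme Drosha with its partner DGCR8, exported as hairpins and trimmed by Dicer. A small group reaches Dicer by other routes. The group described here holds 9 mature miRNAs of the 2588 names in the deposited tables. They are hsa-miR-320a, hsa-miR-320b, hsa-miR-320c, hsa-miR-320d and hsa-miR-320e, hsa-miR-484, hsa-miR-877-5p and hsa-miR-877-3p, and hsa-miR-1226-3p. The members were listed by name and not by any measured value, but with earlier results of these data known. The remaining 2579 names served as the comparison. How any hairpin was processed was not measured in these libraries, so membership rests on what is known of the hairpins.

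Small RNA was sequenced from 3 parental human cancer lines, the thyroid carcinoma line C643, the ovarian carcinoma line ES-2 and the hepatocellular carcinoma line Huh-7. The libraries served a study that inhibited miR-21-5p with synthetic circular RNAs, and they recorded the miRNAs that the parental cells carried. Each line was grown for 48 h after seeding and gave 1 library, so no difference between lines has a replicate check and every interval covers counting error only. The labels name no change of genotype and no agent for these cells, which grew in the same medium, and what 1 library of 1 culture shows may not hold for other cultures of the line.

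Whole reads could be recovered from the deposited values, 8183100 for C643, 1663181 for ES-2 and 2173587 for Huh-7. Levels are given as reads per 1000000 miRNA reads of the same library (RPM), with Wilson 95% confidence intervals (CI). No scaling by length was made, since 1 read stands for 1 mature RNA. In Huh-7, labelled as a liver line, 4 of 4 hepatocyte markers had reads and held 15.5% of all reads, against 0.0132% in ES-2 and 0.0207% in C643. Of 5 epithelial markers, 1, 4 and 5 had reads in C643, ES-2 and Huh-7, summing to 12.5, 52.3 and 3821 RPM. Those at 10 RPM or more numbered 1, 1 and 4. Of 5 blood cell markers, 2, 4 and 3 had reads in C643, ES-2 and Huh-7, summing to 24.2, 333 and 1274 RPM. In ES-2 most of that came from miR-142-3p with 542 reads, which had none in the other libraries, and in Huh-7 from miR-486-5p with 2766 reads. Their part in the results below was not tested.

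The members reach Dicer in different ways. At MIR320A and MIR484 transcription has been described to begin at or next to the hairpin, so that the precursor carries the 5′ cap of an RNA polymerase II transcript and needs no cut by Drosha. MIR320B1 to MIR320E are grouped with MIR320A as its family. Mirtrons are short introns: the splicing machinery frees them, the lariat is opened and the debranched intron folds into a hairpin. After Dicer each duplex is loaded into an Argonaute protein, which keeps 1 arm, and the seed, bases 2 to 8, pairs with target mRNAs.

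The mature sequences show how close miR-320b to miR-320e are to each other and how unlike the other members they are. They are RefSeq sequences, written 5′ to 3′ with the seed in capitals, and the sequence of miR-320a is not shown. Of the 9 members, 8 are given.
hsa-miR-320b: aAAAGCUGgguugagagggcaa
hsa-miR-320c: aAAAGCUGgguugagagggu
hsa-miR-320d: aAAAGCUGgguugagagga
hsa-miR-320e: aAAGCUGGguugagaagg
hsa-miR-484: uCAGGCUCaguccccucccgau
hsa-miR-877-5p: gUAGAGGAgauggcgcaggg
hsa-miR-877-3p: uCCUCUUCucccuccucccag
hsa-miR-1226-3p: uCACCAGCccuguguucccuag

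Counted from the 5′ end of miR-320b, miR-320c departs from it at C20U after 19 shared bases and miR-320d at G19A after 18. miR-320e begins at base 2 of miR-320b, which moves its seed by 1 base, and departs at G17A after 15 shared bases. Seeds were searched in 2281 of the 2588 names, and miR-320a was not among those searched. The seed AAAGCUG was found in 4 of them: miR-320b, miR-320c, miR-320d and miR-4429, a miRNA with 1 read in Huh-7 and none in C643 or ES-2. The seed of miR-484 was shared with miR-3155a and miR-3155b. The seeds of miR-320e, miR-877-5p, miR-877-3p and miR-1226-3p were each found in 1 of the names searched. miR-320b, miR-320c and miR-320d thus differ in their last bases, and reads that end before these bases could be counted under another of them, so their single values are uncertain to that extent. miR-320a was not compared in sequence, so an exchange of reads between miR-320a and these members was not assessed.

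The hairpins of the mirtrons carry the ends of an intron. The RefSeq hairpins (GRCh38.p14) of MIR877 at chr6:30584332-30584417 and MIR1226 at chr3:47849555-47849629, both on the plus strand, are shown 5′ to 3′ with the first GU and the last AG in capitals. The 5p product of MIR877 opens its hairpin and the 3p products close both.
MIR877: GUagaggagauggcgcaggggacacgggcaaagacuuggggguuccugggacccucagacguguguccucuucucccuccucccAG
MIR1226: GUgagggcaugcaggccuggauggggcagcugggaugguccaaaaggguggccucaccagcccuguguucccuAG

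Of 1560 annotated hairpins, 36 (2.31%) begin with GU and end with AG, MIR877 and MIR1226 among them. In GENCODE 29 the 86 nt of MIR877 are an intron of ABCF1, which encodes a factor of translation initiation, in 3 of its 3 overlapping transcripts. The 75 nt of MIR1226 are an intron of DHX30, an RNA helicase gene, in 6 of 6. A hairpin that equals an annotated intron was found for 23 of the 1560 (1.47%). None of the 8 hairpins of miR-484 and of the miR-320 family other than MIR320A had GU and AG ends or equalled an intron. Both mirtron members therefore match the known structure of a mirtron in the annotation.

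MIR484, on chromosome 16 from 15643294 to 15643372 (GRCh38, plus strand), lies in an exon without coding sequence of an NDE1 transcript, 27 bases after its start, and the start of MARF1 on the opposite strand is 128 bases away. A start on the same strand within 100 bases was annotated for 100 of the 1560 hairpins (6.41%), and MIR484 was the 1 of 9 hairpins of the miR-320 family and miR-484 that had one. For the other family hairpins the nearest such start lay between 4669 bases (MIR320E) and 141865 bases (MIR320D2) away. MIR320B2 lies in an intron of NVL on the same strand and MIR320E in an intron of PRKD2. MIR320C1 and MIR320C2 lie opposite to introns of ABHD3 and OSBPL1A. MIR320B1, MIR320D1 and MIR320D2 overlap no annotated gene.

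All 9 members had reads in each library, and 7 of them reached 10 RPM in each. Their summed share of miRNA reads was 0.362% for C643 (95% CI 0.358 to 0.366), 0.375% for ES-2 (0.366 to 0.385) and 1.25% for Huh-7 (1.24 to 1.26). The other names took 99.6%, 99.6% and 98.8% of reads. The group is thus small in each line, and its share in Huh-7 lay above the shares in C643 and ES-2 by more than counting error. Over 1000000 deposited units in place of the column sum the shares were 0.347%, 0.433% and 0.765%, with Huh-7 still highest but by less.

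hsa-miR-320a, which has been described as a repressor of glycolytic genes, was the leading member. It had 23182 reads or 2833 RPM in C643 (2797 to 2870), 5302 reads or 3188 RPM in ES-2 (3103 to 3275) and 25244 reads or 11614 RPM in Huh-7 (11472 to 11757). It ranked 40 of 649 names with reads in C643, 28 of 608 in ES-2 and 11 of 858 in Huh-7. C643 and ES-2 lay near each other and Huh-7 stood above both. Against miR-21-5p, the most abundant miRNA, it was 101-fold lower in C643, 88.5-fold lower in ES-2 and 28.7-fold lower in Huh-7. The hairpin overlaps no other annotated gene, and the start of POLR3D, which encodes a subunit of RNA polymerase III, lies 61 bases away on the opposite strand. The nearest annotated start on its own strand, that of PHYHIP, is 12702 bases away, so the annotation used here shows no start at this hairpin.

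**Figure D1:**
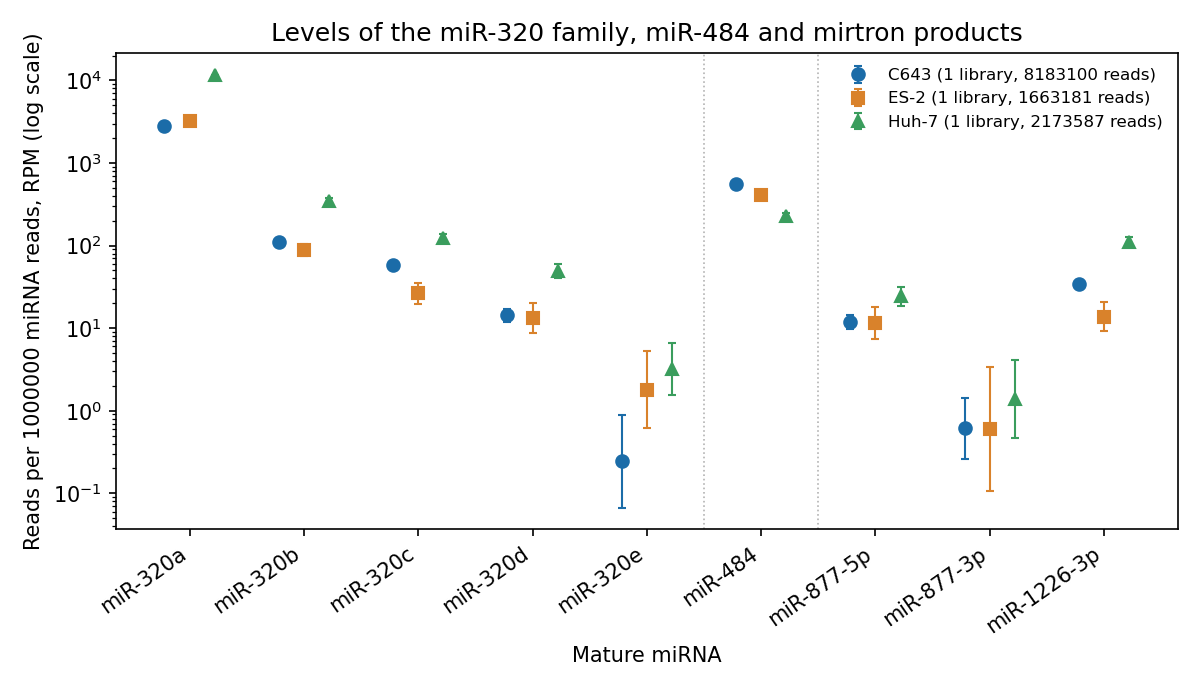
Level of each member in C643, ES-2 and Huh-7, in reads per 1000000 miRNA reads (RPM) on a log axis; points are single libraries and bars Wilson 95% confidence intervals. miR-320a spans 2833 to 11614 RPM, and miR-320e and miR-877-3p stay below 4 RPM, with too few reads to order the lines. Of the other members, miR-484 alone is lowest in Huh-7.

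The other family members followed at far lower levels in a fixed order. hsa-miR-320b had 911 reads (111 RPM) in C643, 148 (89.0 RPM) in ES-2 and 756 (348 RPM) in Huh-7. hsa-miR-320c had 474 reads (57.9 RPM), 44 (26.5 RPM) and 268 (123 RPM) in the same order, and hsa-miR-320d 117 (14.3 RPM), 22 (13.2 RPM) and 107 (49.2 RPM). In every library miR-320a was followed by miR-320b, miR-320c and miR-320d, with intervals that did not overlap between neighbours except those of miR-320c and miR-320d in ES-2 (19.7 to 35.5 and 8.74 to 20.03 RPM). hsa-miR-320e was close to the detection limit, with 2, 3 and 7 reads. At these depths 3 reads correspond to 0.367 RPM for C643, 1.80 for ES-2 and 1.38 for Huh-7.

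Within the family, the share of miR-320a was 93.9% for C643 (95% CI 93.6 to 94.2), 96.1% for ES-2 (95.5 to 96.6) and 95.7% for Huh-7 (95.4 to 95.9). Its partners were compared per 1000 reads of miR-320a, a measure that no scaling between libraries can move. Reads of miR-320a counted under a partner would move it, and this was not tested. miR-320b stood at 39.3 for C643 (36.7 to 42.0), 27.9 for ES-2 (23.5 to 32.9) and 29.9 for Huh-7 (27.8 to 32.2). miR-320c stood at 20.4 (18.6 to 22.4), 8.30 (6.02 to 11.2) and 10.6 (9.38 to 12.0), and miR-320d at 5.05, 4.15 and 4.24. C643 was therefore highest for miR-320b and miR-320c, while ES-2 and Huh-7 did not differ beyond counting error.

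The ratio of miR-320c to miR-320a in ES-2 was 0.406 of that in C643 (95% CI 0.298 to 0.554), and in Huh-7 it was 0.519 of it (0.447 to 0.604). For miR-320b these values were 0.710 (0.596 to 0.847) and 0.762 (0.691 to 0.841). For miR-320d they were 0.822 (0.521 to 1.30) and 0.840 (0.646 to 1.09), so no difference was detectable at this depth. Between Huh-7 and ES-2 the values were 1.07 (0.897 to 1.28) for miR-320b, 1.28 (0.929 to 1.76) for miR-320c and 1.02 (0.645 to 1.62) for miR-320d. C643 lies in a deposited table of its own, and whether the difference comes from that or from the cells cannot be told apart.

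miR-320b, miR-320c and miR-320d are each encoded at a pair of loci that give the same mature sequence. At its loci on chromosome 1 miR-320b had 500 and 411 reads in the C643 library, 72 and 76 in the ES-2 library and 397 and 359 in the Huh-7 library. The share of the first locus was 54.9% for C643 (51.6 to 58.1), 48.6% for ES-2 (40.7 to 56.6) and 52.5% for Huh-7 (49.0 to 56.1), near an even split in each. The loci of miR-320d on chromosomes 13 and X had 56 and 61, 16 and 6, and 56 and 51 reads in these libraries. A read of the mature sequence does not show its locus, so these counts say nothing of which gene was active.

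hsa-miR-484, reported to act on the mitochondrial fission gene FIS1, had the opposite order of libraries. It had 4550 reads or 556 RPM in C643 (95% CI 540 to 572), 677 reads or 407 RPM in ES-2 (378 to 439) and 490 reads or 225 RPM in Huh-7 (206 to 246). It ranked 84, 88 and 143. The 3 intervals did not overlap, with C643 highest and Huh-7 lowest.

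Of the reads of all 9 members, miR-484 therefore made up 15.4% for C643, 10.9% for ES-2 and 1.80% for Huh-7, while miR-320a made up 78.3%, 85.0% and 92.9%. The number of miR-320a reads per read of miR-484 was 5.09 for C643 (4.94 to 5.26), 7.83 for ES-2 (7.23 to 8.50) and 51.5 for Huh-7 (47.1 to 56.5). The ratio in Huh-7 was 10.1-fold that in C643 (9.20 to 11.1) and 6.58-fold that in ES-2 (5.83 to 7.42). Between ES-2 and C643 it differed 1.54-fold (1.41 to 1.68). miR-320a and miR-484 thus differed in opposite directions between Huh-7 and both other lines, and their ratio is free of any factor that scales a whole library. Effects of library preparation that depend on the sequence of a miRNA can differ between libraries and were not tested.

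**Figure D2:**
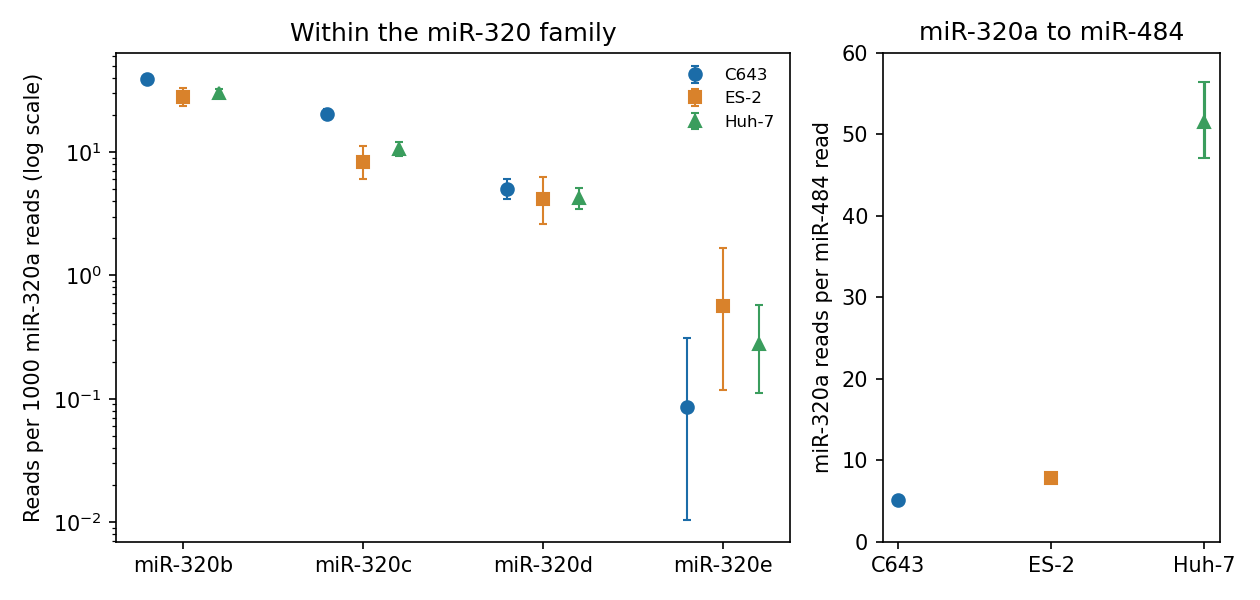
Left, reads of miR-320b to miR-320e per 1000 reads of miR-320a in each library on a log axis; right, reads of miR-320a per read of miR-484 on a linear axis. Points are single libraries and bars exact 95% intervals; miR-320c is highest in C643 at 20.4, and the miR-320a to miR-484 ratio is 51.5 in Huh-7 against 5.09 and 7.83.

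The mirtron products were present at low levels, with miR-877-5p above miR-320e in each library. miR-1226-3p lay above miR-320d in C643 and Huh-7. In ES-2 miR-1226-3p and miR-320d had 23 and 22 reads, with intervals that overlapped (9.22 to 20.8 and 8.74 to 20.03 RPM). hsa-miR-877-5p had 98 reads (12.0 RPM) in C643, 19 (11.4 RPM) in ES-2 and 53 (24.4 RPM) in Huh-7. hsa-miR-1226-3p had 281 reads (34.3 RPM), 23 (13.8 RPM) and 240 (110 RPM), and hsa-miR-877-3p 5, 1 and 3 reads. For miR-1226-3p the intervals of the 3 libraries did not overlap (30.5 to 38.6, 9.22 to 20.8 and 97.3 to 125 RPM). For miR-877-5p C643 (9.83 to 14.6) and ES-2 (7.31 to 17.8) overlapped and Huh-7 (18.6 to 31.9) lay above both. The number of miR-1226-3p reads per read of miR-877-5p was 2.87 for C643 (2.27 to 3.65), 1.21 for ES-2 (0.631 to 2.35) and 4.53 for Huh-7 (3.35 to 6.22).

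The mirtrons kept opposite arms. The share of the 5p arm among reads of MIR877 was 95.1% for C643 (95% CI 89.1 to 97.9), 95% for ES-2 (76.4 to 99.1) and 94.6% for Huh-7 (85.4 to 98.2). For MIR1226 the 5p arm, which is no member, had 0 of 281 reads in C643, 2 of 25 in ES-2 and 10 of 250 in Huh-7, so the 3p arm led with 100%, 92.0% and 96.0%. Over the other precursors with both arms listed and at least 20 reads, the 5p arm led in 50.4% of 266 in C643, 56.7% of 157 in ES-2 and 55.1% of 227 in Huh-7. Among them the leading arm held at least 90% of reads in 71.1%, 73.2% and 65.6%. One strongly preferred arm, as in MIR877 and MIR1226, was therefore usual in these libraries.

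**Figure D3:**
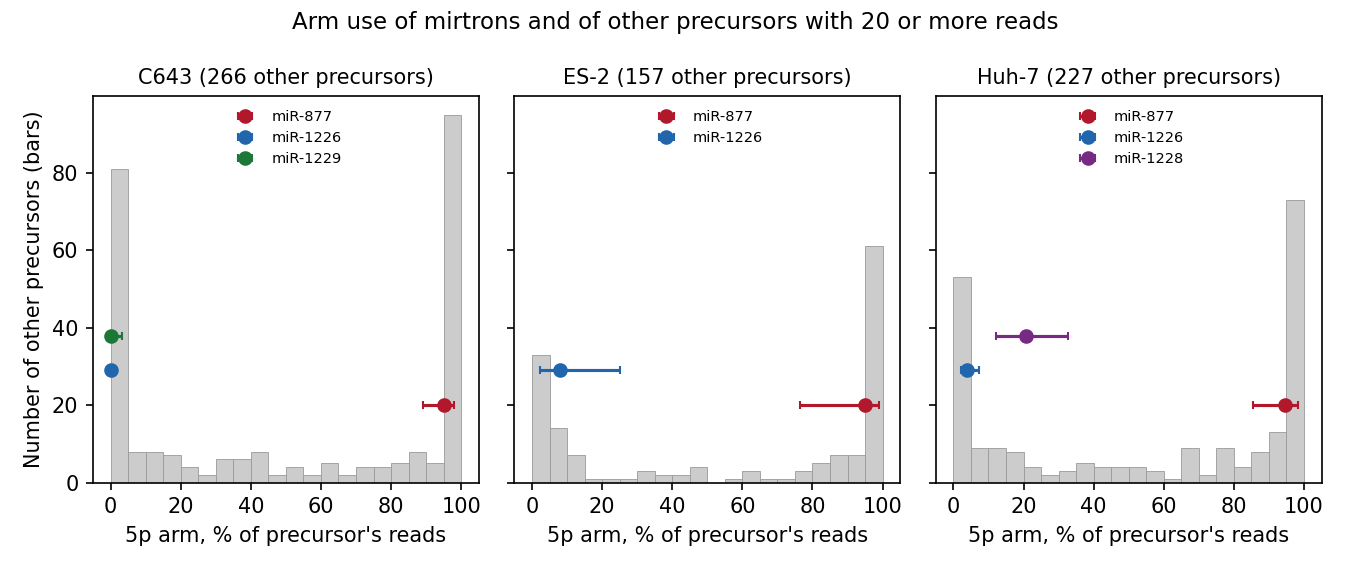
Share of a precursor's reads that come from the 5p arm, in percent. Grey bars count the other precursors with at least 20 reads (266 in C643, 157 in ES-2, 227 in Huh-7) in steps of 5 percentage points, and points with Wilson 95% intervals, at arbitrary heights, are mirtrons; MIR877 lies near 95% and MIR1226 at 0 to 8% in each library.

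A list of 19 arms of other known mirtrons had few reads. In C643 2 of the 19 were detected, in ES-2 4 and in Huh-7 6, with 15.3, 13.2 and 37.3 RPM in all, against 46.9, 25.9 and 136 RPM for the 3 mirtron products among the members. miR-1229-3p, from an intron of MGAT4B, had 117 reads in C643, and 7 and 5 in the ES-2 and Huh-7 libraries. miR-1228-3p, from an intron of LRP1, had 46 reads in Huh-7 beside 12 of its 5p arm, and none in C643 or ES-2. miR-1237-3p had 0, 11 and 6 reads in C643, ES-2 and Huh-7, and miR-1227-3p 8, 2 and 2. The 10 hairpins of this list had GU and AG ends and equalled an annotated intron, 10 of 10 in both cases. Where any of them had reads, the 3p arm led, as in MIR1226 and unlike MIR877.

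To set the members against all miRNAs, each pair of libraries was compared by the difference in log2(RPM + 1) over names with at least 10 RPM in 1 of the 2, a scale that understates the change of low miRNAs. In each pair 7 of 9 members passed this filter, all but miR-320e and miR-877-3p. A difference counted as 4-fold from 2 upward. The column sums differ, so the log2 ratio of a pair is not the same by share as on the deposited scale. Before the 1 is added, the share scale lies above by 0.92 for Huh-7 against ES-2 and 0.65 for Huh-7 against C643. It lies below by 0.27 for ES-2 against C643. Values were therefore also taken on the deposited scale and relative to the median ratio of miRNAs with reads in both libraries.

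For Huh-7 against ES-2, a 4-fold higher level was found in Huh-7 for 41.4% of 437 miRNAs and in ES-2 for 14.9%. Of the 7 members 2 were 4-fold higher in Huh-7 and 0 in ES-2. miR-1226-3p was 7.98-fold higher by share (95% CI 5.20 to 12.8, log2 difference 2.91) and miR-320c 4.66-fold (3.38 to 6.57, log2 difference 2.18). At 2-fold, 60.6% of all miRNAs were higher in Huh-7 and 18.5% in ES-2, against 6 and 0 of the members. On the deposited scale the members numbered 3 and 1, and relative to the median ratio 1 and 1, the one higher in ES-2 being miR-484 in both. The median log2 difference was 1.86 over the members and 1.65 over all miRNAs, so the members as a set lay near the rest.

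In that pair miR-320a was 3.64-fold higher in Huh-7 (3.54 to 3.75), miR-320b 3.91-fold (3.27 to 4.69), miR-320d 3.72-fold (2.34 to 6.19) and miR-877-5p 2.13-fold (1.24 to 3.82). miR-484 was 1.81-fold higher in ES-2 (1.61 to 2.03). The log2 difference of miR-320a was 1.86 by share, 0.95 on the deposited scale and 0.47 relative to the median ratio, higher in Huh-7 each time. That of miR-484 was -0.85, -1.76 and -2.24, lower in Huh-7 each time. miR-1226-3p stayed higher in Huh-7 at 2.91, 2.02 and 1.52, while miR-877-5p at 1.03, 0.17 and -0.36 changed sign relative to the median ratio. Which member passed 4-fold thus rested on the scaling, with miR-1226-3p alone on the deposited scale and miR-484 alone relative to the median ratio.

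For Huh-7 against C643, 35.5% of 442 miRNAs were past 4-fold with Huh-7 higher and 17.4% with C643 higher. Of the members 1 was 4-fold higher in Huh-7, miR-320a with 4.10-fold by share (4.03 to 4.17), and 0 in C643. The log2 difference of miR-320a was 2.04 by share but 1.39 on the deposited scale and 1.29 relative to the median ratio, so its 4-fold call held by share only. At 2-fold 50.2% of all miRNAs were higher in Huh-7 and 22.2% in C643, against 5 members and 1 member, miR-484. On the deposited scale 3 members stayed past 2-fold with Huh-7 higher (miR-320a, miR-320d and miR-1226-3p) and relative to the median ratio 1 (miR-320a), with miR-484 past it in the other direction on both. miR-320b was 3.12-fold higher in Huh-7 (2.83 to 3.44), miR-320d 3.44-fold, miR-1226-3p 3.22-fold, miR-320c 2.13-fold and miR-877-5p 2.04-fold (1.43 to 2.87). miR-484 was 2.47-fold higher in C643 (2.25 to 2.71), with log2 differences of -1.30 by share, -1.94 on the deposited scale and -2.04 relative to the median ratio. The median log2 difference was 1.63 over the members and 1.04 over all miRNAs. miR-320e, with 7 reads against 2, had a fold of 13.2 whose counting interval ran from 2.51 to 130.

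For ES-2 against C643, 9.48% of 348 miRNAs were past 4-fold with ES-2 higher and 19.5% with C643 higher, and 0 members were past 4-fold either way. At 2-fold 19.0% were higher in ES-2 and 38.8% in C643, against 0 and 2 members. Those higher in C643 were miR-1226-3p at 2.48-fold (1.62 to 3.98) and miR-320c at 2.19-fold (1.61 to 3.05). For miR-320c the log2 difference was -1.10 by share, -0.84 on the deposited scale and -0.79 relative to the median ratio, and for miR-1226-3p it was -1.25 by share and -0.94 relative to the median ratio. Both kept their direction, but on the deposited scale miR-1226-3p alone stayed past 2-fold and relative to the median ratio neither did. miR-484 was 1.37-fold higher in C643 (1.26 to 1.48) and miR-320a 1.13-fold higher in ES-2 (1.09 to 1.16). For miR-320d and miR-877-5p no difference was detectable, with folds of 0.925 (0.558 to 1.47) and 0.954 (0.551 to 1.57). The median log2 difference was -0.32 over the members and -0.39 over all miRNAs. These pairs share libraries and are not independent of each other.

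**Figure D4:**
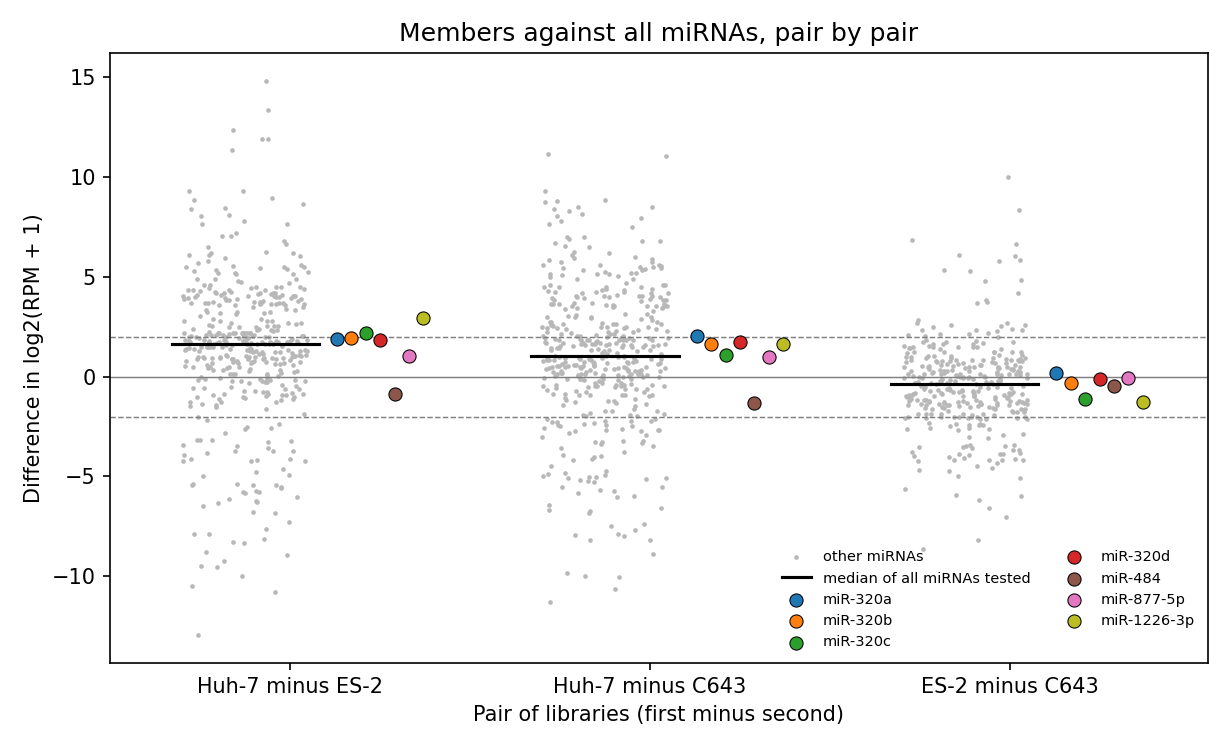
Difference in log2(RPM + 1) for each pair of libraries, first minus second. Grey points, spread sideways at random, are the other miRNAs with at least 10 RPM in 1 library of the pair, black lines the median of all miRNAs tested (1.65, 1.04 and -0.39), dashed lines 4-fold, and coloured points the 7 members that passed the filter; miR-484 lies below 0 in each pair.

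The spread over the lines was taken as the highest minus the lowest log2(RPM + 1) of the 3 libraries, for 461 miRNAs with at least 10 RPM in 1 of them. Its median was 3.17 over all and 1.95 over the 7 members, and 7 of 7 members lay below the median of all. The 7 members reached 10 RPM in each library, which the filter did not ask of the others. Names at 10 RPM numbered 307, 281 and 389 in C643, ES-2 and Huh-7. Names near 0 in a library have wide spreads, so the place of the members below the median is partly set by the filter. The percentiles below carry the same limit. miR-877-5p had the smallest spread of the members, 1.03, at percentile 8.89. miR-484 followed with 1.30, at percentile 13.4. miR-320d (1.82), miR-320b (1.95), miR-320a (2.04) and miR-320c (2.18) lay between percentiles 25.6 and 35.6, and miR-1226-3p with 2.91 was at 47.9. miR-320b, miR-320c and miR-320d differ little in sequence and may exchange reads, so they are not separate observations of this spread. The ranking is by share only, and scaling moves the values under it. For miR-484 the difference reached -1.94 on the deposited scale (Huh-7 against C643) and -2.24 relative to the median ratio (Huh-7 against ES-2). For miR-320a, Huh-7 against C643 gave 2.04 by share, but 1.39 and 1.29 on those scales. Whether the low percentile of miR-484 holds on them was not tested.

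**Figure D5:**
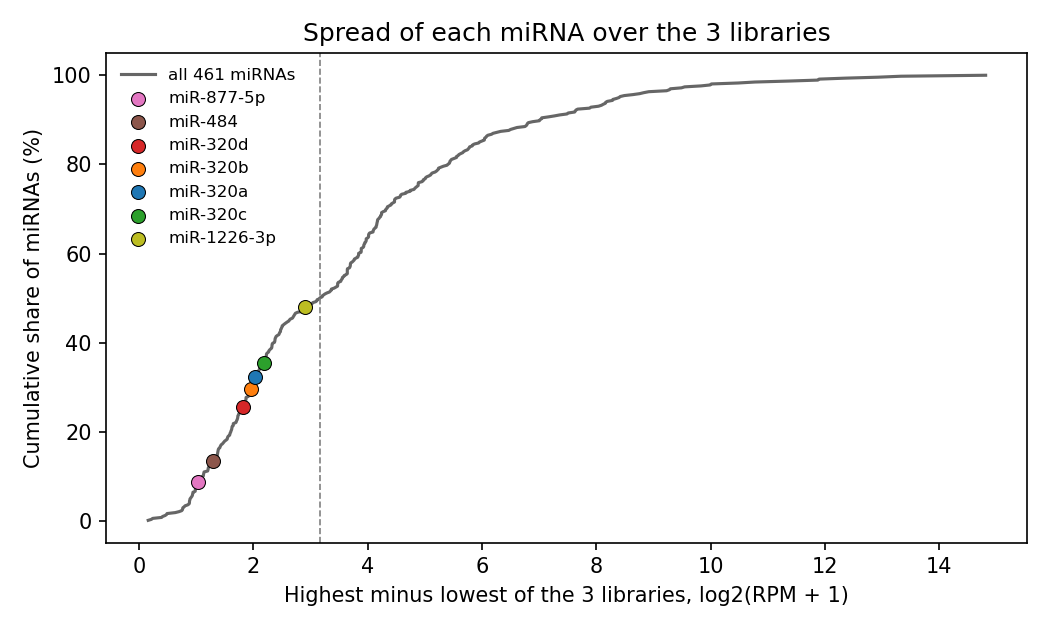
Cumulative share of 461 miRNAs, in percent, by the highest minus the lowest log2(RPM + 1) over C643, ES-2 and Huh-7, with 7 members marked and a dashed line at the median of 3.17. The members lie between 1.03 and 2.91, all to the left of the median. They had 10 RPM or more in each library, which the other names need not have.

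The miRNAs nearest in pattern were found by the largest difference in log2(RPM + 1) in any of the 3 libraries. For miR-320a they were miR-423-5p (largest difference 0.16), with 2913, 3124 and 10410 RPM in C643, ES-2 and Huh-7, miR-93-5p (0.37) and miR-191-5p (0.43). For miR-484 they were miR-152-3p (0.48), with 397, 345 and 163 RPM, miR-92a-1-5p (0.68) and miR-629-5p (1.03). For miR-877-5p they were miR-301a-3p (0.57), miR-33b-3p and miR-3605-3p (0.60 each). With 3 libraries such likeness is a description of levels.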

How the data were processed

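Small RNA libraries of C643, ES-2 and Huh-7, 1 each, were made from 50 ng of total RNA with a NEXTflex kit. The submitters' processing notes name cutadapt 1.14, Bowtie2 2.3.3, SAMtools 1.5, featureCounts 1.5.3, edgeR 3.18.1 and hg38; how reads matching several loci were treated is not given in the sources used here. The authors deposited 2 tables of a signal called CPM, scaled counts per locus for 2813 loci, with C643 in a table of its own. Columns summed to 959302, 1154552 and 612015, not to 1000000, where the design had assumed plain CPM. Dividing by the value of 1 read (0.117, 0.694 and 0.282 units) gave whole reads for 100% of values above 0 within a tolerance of 0.01. Loci of a name were summed.

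Intervals are Wilson for shares and exact (Clopper-Pearson, conditional) for ratios within a library and for folds of shares. Where a ratio of miRNAs was compared between libraries, the interval is a normal approximation on the log scale. Reads without molecular identifiers are not independent molecules. A count of 0 allows up to 3 reads, a share of 3.67e-05% for C643, 0.00018% for ES-2 and 0.000138% for Huh-7. The read test, an exact binomial test on the reads of each miRNA in a pair, gave p-values for counting error only. They were adjusted across the miRNAs tested by the Benjamini-Hochberg method and called below 0.05. Levels set across the 2 tables are descriptions. Members and lists were chosen with earlier results of these data known; named were the members, listed mirtrons and small nucleolar RNA overlaps at 10 RPM or more or with reads of a compared arm, and the nearest miRNAs of miR-320a, miR-484 and miR-877-5p. Scaling, pseudocount, filter, fold limit, loci and an exact binomial test on reads were varied, and the read test was tested on simulated data. Sequences came from RefSeq (GRCh38.p14) and gene overlaps from GENCODE 29. Python 3.11.15, pandas 2.3.3, scipy 1.17.1 and matplotlib 3.10.9 were used.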

Additional observations from a re-analysis of the deposited data

How the results depend on the processing

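No paired analysis was possible because there was 1 library a line. Of the recomputed main values 39 stayed within counting error or within 1.5 times of a count and 45 moved. For C643, ES-2 and Huh-7 in turn, the 9 members held 0.347%, 0.433% and 0.765% of 1000000 units, 0.507%, 0.523% and 1.87% without miR-21-5p, and 0.425%, 0.433% and 1.35% with 1 locus per miRNA. For the miR-320 family these were 0.289%, 0.383% and 0.743%, then 0.423%, 0.462% and 1.82%, then 0.352%, 0.382% and 1.31%. Huh-7 was highest under each.

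The members' median log2 difference fell to 0.95 on the deposited scale and 0.47 relative to the median ratio for Huh-7 against ES-2, and to 0.99 and 0.89 against C643. Members past the limit in Huh-7 against ES-2 were 1 on the deposited scale, relative to the median ratio and with a pseudocount of 10, 6 at 2-fold and 7 by the read test. Against C643 they were 0 on the deposited scale and with 1 locus, 6 at 2-fold and 7 by the read test, and for ES-2 against C643 2 at 2-fold and 5 by the read test, which compares libraries and not lines. Over all miRNAs, the counts of 246, 234 and 101 in the same order of pairs became 374, 395 and 215 without a filter, 113, 120 and 37 with a filter at 100, and 405, 404 and 307 by the read test. A pseudocount of 10 gave 145 for Huh-7 against ES-2 and 47 for ES-2 against C643, and 2-fold gave 201 for the latter.

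The split of 181 higher in Huh-7 and 65 in ES-2 became 108 and 76 on the deposited scale and 117 and 95 relative to the median ratio. Against C643 157 and 77 became 100 and 90, and 120 and 93. Of 27 member differences 4 changed sign on the deposited scale and 7 relative to the median ratio, and 0 with a pseudocount of 10 or 1 locus. The one of these past counting error was miR-877-5p in Huh-7 against ES-2, at -0.36 relative to the median ratio. Depth limited miR-320e and miR-877-3p, with 1 to 7 reads a library, so no order of lines was read from them. Changes of denominator, filter, fold limit and loci follow from their construction; for the changes of scale the cause was not tested.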

Other observations

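Another set of miRNAs thought to need little Drosha comes from hairpins that overlap small nucleolar RNAs. Of 10 such names 7, 5 and 8 had reads in C643, ES-2 and Huh-7, summing to 56.9, 63.7 and 80.1 RPM. hsa-miR-3607-3p led them with 28.8 RPM (236 reads) in C643, 47.5 RPM (79) in ES-2 and 30.4 RPM (66) in Huh-7, and was highest in ES-2. By share ES-2 exceeded C643 by 1.65-fold (95% CI 1.26 to 2.13) and Huh-7 by 1.56-fold (1.11 to 2.20). miR-664a-3p had 71, 4 and 39 reads, miR-664a-5p 47, 13 and 26, and miR-3653-3p 81, 5 and 22. miR-451a, whose hairpin is cut by Drosha but not by Dicer, had 1 read in ES-2 and none in C643 or Huh-7, where up to 3.67e-05% and 0.000138% of reads would go unseen.

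The 23 hairpins that equal an annotated intron, a set chosen after the data had been seen, list 40 mature names. Of these 5, 9 and 13 had reads in C643, ES-2 and Huh-7, with 62.2, 40.3 and 182 RPM in all. miR-1226-3p made up 281 of the 509 reads in C643, 23 of 67 in ES-2 and 240 of 395 in Huh-7. Outside the lists of known mirtrons, miR-6807-5p had 10 reads in Huh-7 and none in C643 or ES-2.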
